A study of Mus musculus with 27 samples.

Results

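The genes described here were 8 members of the Fc receptor and ITAM signalling system: the immunoglobulin G receptors Fcgr1, Fcgr2b, Fcgr3 and Fcgr4, the adaptor chains Fcer1g and Tyrobp, the kinase Syk, and Nfam1, a receptor described as having an ITAM-like tail. They were taken by symbol from the 54532 genes of a bulk RNA sequencing table of mouse tibialis anterior muscle, and all 8 were present. The 27 samples came from C57BL/6 mice, male and 8 weeks old, in a model of volumetric muscle loss (VML) in which 40% of the muscle was cut away. They comprised 5 control (uninjured) samples and 5, 6, 6 and 5 samples taken 3, 7, 14 and 21 days after VML, in that order (day 3 to day 21). The labels name no other allele or agent in any group, and no sham operation is described for the controls. The comparisons ask how transcript levels changed over the 3 weeks after injury. Nothing in the labels states that every sample came from a separate animal, so p-values measure the spread between these samples.

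Fc gamma receptors bind the constant part of immunoglobulin G and link antibody-coated particles to macrophages, neutrophils and other leukocytes. The activating receptors carry no signalling motif of their own in the mouse and depend on the Fcer1g chain, whose immunoreceptor tyrosine-based activation motif (ITAM) is phosphorylated by Src-family kinases and then recruits the kinase Syk. Fcgr2b instead carries an inhibitory motif (ITIM) that recruits phosphatases, and Tyrobp (DAP12) serves a separate set of receptors, among them Trem2, through the same kind of ITAM. In injured skeletal muscle, infiltrating monocytes and macrophages are a well-known source of these transcripts.

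The motifs themselves are shown because they are what joins these genes into 1 system. Each ITAM below is printed as coding sequence on GENCODE M21 (GRCm38), with the codons of the motif tyrosines and of the paired leucines in capitals.

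Fcer1g: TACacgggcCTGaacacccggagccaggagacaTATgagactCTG
Tyrobp: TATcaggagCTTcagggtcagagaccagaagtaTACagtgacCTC

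The Fcer1g stretch spans codons 65 to 79 of 86, and the Tyrobp stretch spans codons 92 to 106 of 114. The codon pattern searched (a tyrosine codon, 2 codons of any kind, a leucine or isoleucine codon, 6 to 12 codons of any kind, then the tyrosine and leucine or isoleucine spacing again) was found in 6.65% of 21538 coding genes, and in none of the other 6 members. Fcgr2b holds the ITIM stretch below at codons 317 to 322 of 340, again with the tyrosine and the leucine codon in capitals.

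Fcgr2b: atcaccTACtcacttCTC

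The letters of that search (isoleucine, leucine, valine or serine, any residue, tyrosine, 2 residues of any kind, then leucine, isoleucine or valine) are loose. They occurred 3 times in Fcgr1, 1 time in Fcgr4, not in Fcgr3, and in 49.1% of the coding genes, so the match alone does not set Fcgr2b apart, and its stretch is printed as its known ITIM.

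All samples were sequenced at moderate depth, with 14376395 to 24436763 reads recovered on genes (median 17398586). The muscle label held in every group, although skeletal muscle markers were lower at day 3. Their summed level was then 19009 to 50270 FPKM (reads scaled to gene length and a depth value per sample) against 74832 to 92214 FPKM in uninjured muscle. That depth value was not the sample's own total of recovered reads. It was 0.747 to 0.819 of that total in uninjured samples, 1.14 to 1.48 at day 3 and 0.810 to 1.44 at day 7. Deposited FPKM are therefore lower at day 3, against uninjured muscle, than with own totals. Of 9 skeletal muscle markers 7 were called lower at day 3 as deposited, 6 with own totals and 3 after rescaling to a common sum per sample. Some injured samples lay at the edge of their group for most members. Day 7 replicate 5 was the highest day 7 sample and day 7 replicate 6 the lowest for 8 of 8 members. Day 3 replicate 5 was the lowest of its group, day 14 replicate 3 the lowest, and day 3 replicate 4 and day 14 replicate 5 the highest, for 6 of 8 each. Counts of calls, day 7 changes and relative levels are also given without day 3 replicate 5 and day 7 replicate 5. Those samples were chosen with their values known, so what is called without them is a description and no p is given for it. In whole-tissue RNA, more cells of a type and more RNA per cell cannot be told apart.

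Both adaptor chains rose after VML to the highest levels among the 8 genes. Fcer1g, the common gamma chain of the activating Fc receptors, was at 3.01, 2.99, 5.95, 3.16 and 2.66 FPKM in uninjured replicates 1 to 5, and at 180.3, 151, 209, 238 and 82.3 FPKM in day 3 replicates 1 to 5. No day 3 sample came near the uninjured range. Fcer1g then ranged from 14.7 to 261 FPKM at day 7 (median 27.2) and from 8.49 to 28.5 FPKM at day 14 (median 16.4), and it was at 13.8, 11.5, 9.96, 11.4 and 5.64 FPKM in the day 21 samples. At day 7 and day 14 every sample lay above the uninjured range, whereas day 21 replicate 5 fell just inside it. On the log2(FPKM + 1) scale, on which every fold change from the fit is given and changes of low genes are understated, Fcer1g was higher than in uninjured muscle by 5.21 ± 0.49 at day 3 (SE; limma, adjusted p = 7.5e-08), the 9th largest increase of 14630 genes tested. The log2 fold change was 3.24 ± 0.47 at day 7 (limma, adjusted p = 4.26e-05) and 1.97 ± 0.47 at day 14 (limma, adjusted p = 0.00517). At day 21 the estimate of 1.33 ± 0.49 did not pass (limma, adjusted p = 0.129). All 4 of these comparisons share the 5 uninjured samples.

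Tyrobp, the adaptor of Trem2 and related myeloid receptors, followed closely. Its levels were 3.83, 3.92, 1.53, 3.90 and 2.25 FPKM in uninjured muscle and 159, 107, 226, 248 and 51.0 FPKM at day 3. They ran from 7.70 to 259.9 FPKM at day 7 (median 27.1), from 5.04 to 23 FPKM at day 14 (median 13.4), and were 5.86, 7.77, 7.60, 5.89 and 5.51 FPKM at day 21. Every injured sample, day 21 included, was above every uninjured sample. Tyrobp was 5.13 ± 0.58 higher on the log2 scale at day 3 (SE; limma, adjusted p = 5.64e-07), 3.14 ± 0.56 at day 7 (limma, adjusted p = 0.000347) and 1.71 ± 0.56 at day 14 (limma, adjusted p = 0.0313). The day 21 estimate of 0.92 ± 0.58 did not pass in spite of the separate ranges (limma, adjusted p = 0.393). The mean log2 ratio of Fcer1g to Tyrobp was 0.22 ± 0.96 in uninjured muscle and 0.24 ± 0.35 at day 3 (SD, n = 5 each; exact permutation test, two-sided, p = 1). That ratio was 0.28 ± 0.37 at day 7, 0.46 ± 0.37 at day 14 and 0.63 ± 0.47 at day 21 (exact permutation tests, p = 0.905, 0.604 and 0.421). The uninjured mean rests on 1 sample at 1.89, and the median ratio was -0.29 in uninjured muscle and 0.56 at day 21, so these tests do not show that the ratio was constant.

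**Figure D1:**
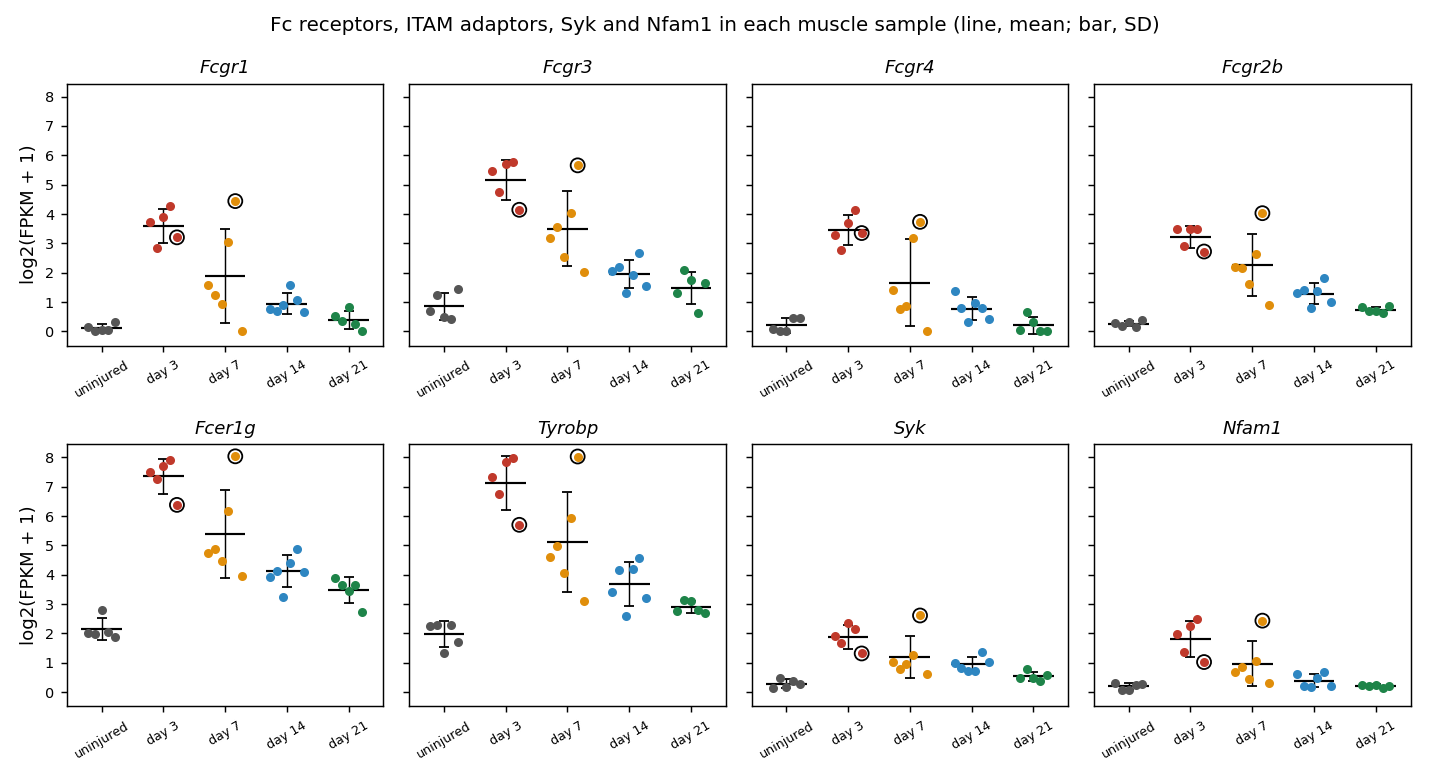
Level of each of the 8 genes in every sample, as log2(FPKM + 1), by group (uninjured, days 3, 7, 14 and 21 after VML); points are samples, lines are group means with SD, and rings mark day 3 replicate 5 and day 7 replicate 5. Every day 3 sample lies above every uninjured sample for all 8 genes, and the ringed day 7 sample is the highest of its group in each panel.

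The 3 activating receptors rose at day 3, Fcgr1 and Fcgr4 from levels near the limit of detection. Fcgr3, the low-affinity activating receptor, was measurable in uninjured muscle at 0.606, 1.37, 0.393, 0.328 and 1.73 FPKM and reached 42.7, 25.8, 50.6, 53.3 and 16.7 FPKM at day 3. It ranged from 3.10 to 49.5 FPKM at day 7 (median 9.41) and from 1.48 to 5.38 FPKM at day 14 (median 2.95), and was at 1.47, 3.25, 2.34, 0.537 and 2.12 FPKM at day 21. Day 3 and day 7 samples lay above all uninjured samples, and the day 14 and day 21 ranges overlapped the uninjured range. Fcgr3 rose by 4.30 ± 0.46 on the log2 scale at day 3 (SE; limma, adjusted p = 2.66e-07) and by 2.65 ± 0.44 at day 7 (limma, adjusted p = 0.00017). At day 14 it was 1.10 ± 0.44 higher (limma, adjusted p = 0.0765) and at day 21 0.62 ± 0.46 higher (limma, adjusted p = 0.469), and neither passed.

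Fcgr1, the high-affinity receptor for immunoglobulin G, was at 0.116, 0, 0.0329, 0.0314 and 0.264 FPKM in uninjured muscle, which came to 16 reads over the 5 samples. At day 3 it was at 12.3, 6.16, 13.8, 18.4 and 8.22 FPKM, from 3406 reads, and the ratio of the group means was 133, the widest of the 8 genes. Uninjured replicate 5 held 10 of the 16 reads, and without it the ratio was 261. Of the later samples, day 7 ran from 0 to 20.7 FPKM (median 1.70), day 14 from 0.590 to 2.01 FPKM (median 0.791), and day 21 was at 0.435, 0.290, 0.783, 0.180 and 0 FPKM. The zero at day 7 belonged to replicate 6 and allows up to 0.0930 FPKM (3 reads). The log2 fold change was 3.47 ± 0.49 at day 3 (SE; limma, adjusted p = 6.86e-06) and 1.76 ± 0.47 at day 7 (limma, adjusted p = 0.00683). Fcgr1 did not pass at day 14, where all samples lay above the uninjured range (0.83 ± 0.47; limma, adjusted p = 0.208), nor at day 21 (0.27 ± 0.49; limma, adjusted p = 0.795).

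Fcgr4, the activating receptor for the IgG2 subclasses, was at 0.0598, 0, 0, 0.388 and 0.381 FPKM in uninjured muscle, from 14 reads in all, and at 8.70, 5.79, 12.1, 16.6 and 9.20 FPKM at day 3. The day 7 samples spread from 0 to 12.3 FPKM (median 1.27), and the value of 0 in replicate 6 allows up to 0.192 FPKM. By day 14 the range was 0.255 to 1.58 FPKM (median 0.742), and at day 21 the samples were at 0.0472, 0.598, 0.237, 0 and 0 FPKM, and both ranges overlapped the uninjured one. Fcgr4 rose by 3.24 ± 0.45 on the log2 scale at day 3 (SE; limma, adjusted p = 6.79e-06) and by 1.46 ± 0.44 at day 7 (limma, adjusted p = 0.0142). It was 0.58 ± 0.44 higher at day 14 (limma, adjusted p = 0.358) and 0.01 ± 0.45 at day 21 (limma, adjusted p = 0.999), and neither passed.

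Fcgr2b, the inhibitory receptor whose ITIM is printed above, also rose. Uninjured samples were at 0.22, 0.14, 0.250, 0.112 and 0.319 FPKM and day 3 samples at 10.3, 6.44, 10.3, 10.1 and 5.60 FPKM. Day 7 samples lay between 0.859 and 15.3 FPKM (median 3.5), day 14 samples between 0.728 and 2.51 FPKM (median 1.54), and day 21 samples were at 0.778, 0.636, 0.618, 0.552 and 0.820 FPKM. No injured sample at any day overlapped the uninjured range. The log2 fold change was 2.95 ± 0.33 at day 3 (SE; limma, adjusted p = 5.36e-07), 1.98 ± 0.32 at day 7 (limma, adjusted p = 0.000118) and 1.01 ± 0.32 at day 14 (limma, adjusted p = 0.0253), which made Fcgr2b the only Fc receptor called at day 14. At day 21 it was 0.48 ± 0.33 higher and did not pass (limma, adjusted p = 0.441).

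The balance of activating to inhibitory receptors was taken as the log2 ratio of summed Fcgr1, Fcgr3 and Fcgr4 to Fcgr2b, with 0.1 FPKM added to both. It was 1.84 ± 0.85 in uninjured muscle (SD, n = 5) and 2.74 ± 0.24 at day 3 (SD, n = 5). The day 3 difference of 0.90 gave p = 0.0476 by an exact two-sided permutation test, and 0.381 after Benjamini-Hochberg adjustment over the 8 ratio tests (2 ratios at 4 days), so it did not hold up, and 3 of 5 day 3 samples lay above all uninjured samples. With 1 FPKM added in place of 0.1 the differences were 1.86 for day 3 and 0.95 for day 7, each with an adjusted exact permutation p of 0.0433, so the call depended on the value added. That 1 FPKM exceeds every uninjured Fcgr2b value (0.112 to 0.319 FPKM). It pulls the uninjured ratios toward 0 and so widens these differences. Taken from group means of FPKM, the differences were 0.36 for day 3, -0.18 for day 7, -0.77 for day 14 and -0.60 for day 21. At day 7 the ratio was 1.98 ± 0.40 (n = 6, difference 0.13, exact permutation p = 0.768), at day 14 it was 1.62 ± 0.16 (n = 6, difference -0.22, exact permutation p = 0.565) and at day 21 it was 1.52 ± 0.89 (n = 5, difference -0.32, exact permutation p = 0.556). The smallest p these designs allow is 0.00794 for 5 against 5 samples and 0.00433 for 6 against 5. The day 3 samples (2.53 to 3.11) lay above the day 14 samples (1.44 to 1.80) without overlap, a difference seen after the values were known and not tested.

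**Figure D2:**
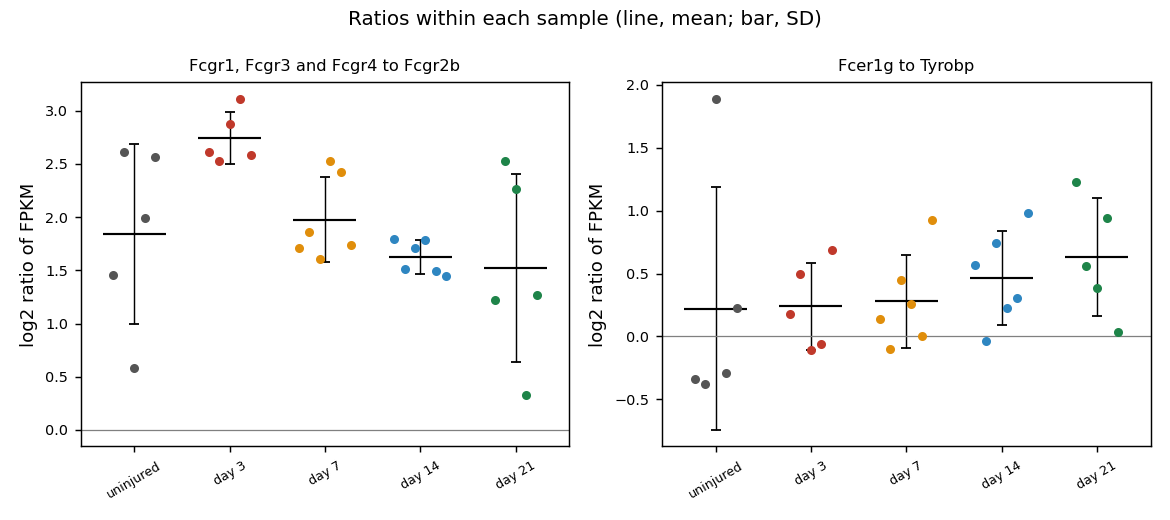
Log2 ratios in every sample by group: summed Fcgr1, Fcgr3 and Fcgr4 to Fcgr2b, and Fcer1g to Tyrobp; points are samples, horizontal lines are group means and bars are SD. The day 3 samples lie above the day 14 samples in the first panel, and in the second the uninjured group has 1 sample at 1.89.

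Syk and Nfam1 rose less than the receptors and adaptors. Syk, the kinase that docks on phosphorylated ITAMs, was at 0.112, 0.410, 0.118, 0.304 and 0.219 FPKM in uninjured muscle and 2.81, 2.18, 4.18, 3.43 and 1.5 FPKM at day 3. It ran from 0.549 to 5.12 FPKM at day 7 (median 0.994), from 0.647 to 1.58 FPKM at day 14 (median 0.873), and was at 0.386, 0.714, 0.395, 0.306 and 0.498 FPKM at day 21. All samples of days 3, 7 and 14 were above the uninjured range, and the day 21 samples overlapped it. Its log2 fold change was 1.59 ± 0.25 at day 3 (SE; limma, adjusted p = 2.26e-05), 0.92 ± 0.24 at day 7 (limma, adjusted p = 0.00595), 0.65 ± 0.24 at day 14 (limma, adjusted p = 0.0541) and 0.24 ± 0.25 at day 21 (limma, adjusted p = 0.626). Only the first pair passed.

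Nfam1, a receptor known from B-cell signalling, was at 0.236, 0.0583, 0.0428, 0.183 and 0.223 FPKM in uninjured muscle and 2.92, 1.56, 3.83, 4.57 and 1.04 FPKM at day 3. At day 7 it ran from 0.242 to 4.42 FPKM (median 0.716) and at day 14 from 0.134 to 0.600 FPKM (median 0.283), and the day 21 samples were at 0.193, 0.170, 0.195, 0.109 and 0.157 FPKM, within the uninjured range. The log2 fold change was 1.62 ± 0.28 at day 3 (SE; limma, adjusted p = 6.44e-05) and 0.78 ± 0.27 at day 7 (limma, adjusted p = 0.0307). Neither day 14 (0.20 ± 0.27; limma, adjusted p = 0.628) nor day 21 (0.02 ± 0.28; limma, adjusted p = 0.977) passed.

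Counted together, 8 of 8 members rose by day 3, when 23.4% of all genes tested did, and 8 of 8 by day 7, when 15% did. Rescaling FPKM to a common sum raised the median of all genes by 0.51 at day 3, and the members' log2 fold changes were then 1.99 to 5.93, again with 8 called. At day 14 the call covered 3 of 8 (Fcer1g, Tyrobp and Fcgr2b) beside 9.02% of all genes. That count ran from 0, when the recovered reads were tested with voom weights, to 7, when only the 2 groups entered the fit, and leaving out day 14 replicate 5 left 1 (Fcer1g). It was 2 without uninjured replicate 3, 4 or 5 or day 14 replicate 2 or 4, and Fcer1g was called each time. At day 7, Nfam1 lost its call without uninjured replicate 2 or 3 or without day 7 replicate 4 or 5 alone. At day 21 limma called 0 of 8, beside 1.74% of all genes, and only Fcer1g was under 0.05 before adjustment. Voom on the recovered reads also called 0 at day 21. The fit of only the 2 groups called 3 (Fcer1g, Fcgr2b and Tyrobp), when 1477 genes were called in all against 502. Sample quality weights called 1 (Fcer1g), with 2471 genes in all. The main fit takes 1 spread per gene from all 5 groups, so the wide day 7 values enter the day 21 test. Samples did not overlap those of uninjured muscle, on the higher side, for 8 members on day 3 (19.8% of all genes), 6 on day 7 (7.25%), 5 on day 14 (7.67%) and 2 on day 21 (5.26%, Fcgr2b and Tyrobp). Of the 8 genes, 5 (Fcgr1, Fcgr2b, Fcgr4, Syk and Nfam1) had no uninjured sample at 0.5 FPKM and passed the filter on low values through injured samples alone. Fcgr3 had 3 uninjured samples at that level where 5 samples are needed, so it too passed only with injured samples. With both day 3 replicate 5 and day 7 replicate 5 left out, the members called were 8 on day 3 (23.8% of all genes), 8 on day 7 (12.4%), 5 on day 14 (11.6%, with Fcgr3 and Syk added) and 1 on day 21 (2.52%, Fcer1g). The day 7 log2 fold changes were then lower, from 0.48 (Nfam1) to 2.70 (Fcer1g), with 2.56 for Tyrobp and 1.25 for Fcgr1.

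**Figure D3:**
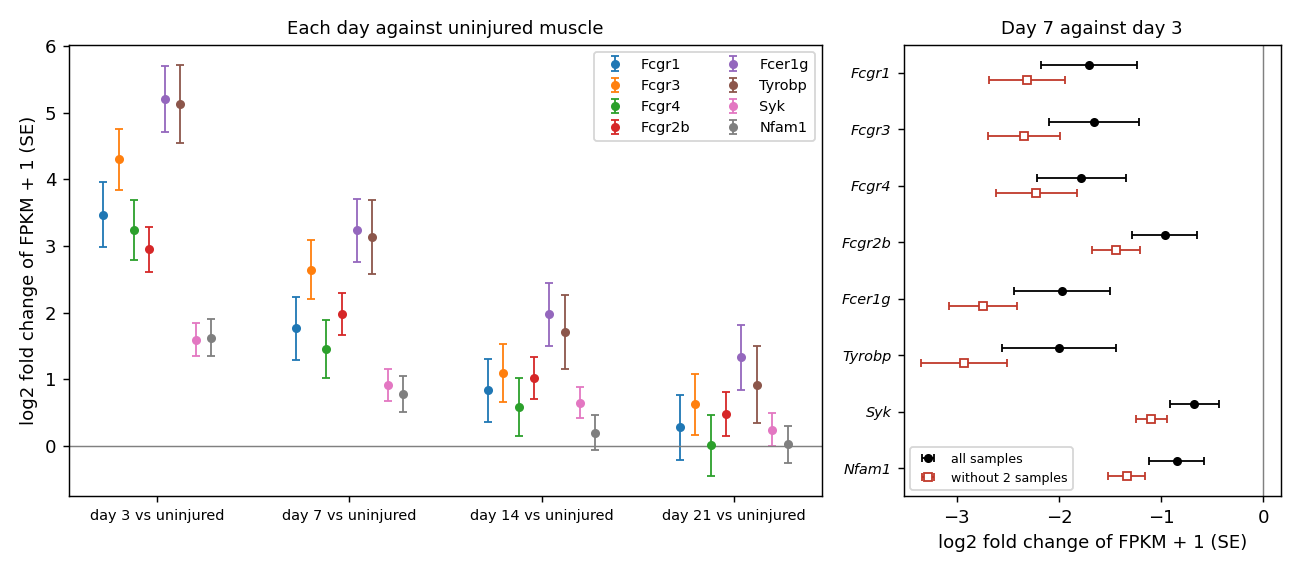
Log2 fold changes of the 8 genes with their SE from limma, against uninjured muscle at each day (left) and for day 7 against day 3 (right), the latter with all samples in black and without day 3 replicate 5 and day 7 replicate 5 as red squares. On log2(FPKM + 1), which understates changes of low genes, Fcer1g and Tyrobp show the largest increases at day 3 (5.21 and 5.13). By ratio of group means Fcgr1 (133) and Fcgr4 (63.2) were above Tyrobp (51.3) and Fcer1g (48.5). Without day 3 replicate 5 and day 7 replicate 5 the day 7 against day 3 values move down, to -2.74 for Fcer1g.

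The 3 genes with the highest levels per length were Fcer1g, Tyrobp and Fcgr3 in every group. At day 3 the group means ran Fcer1g (172 ± 59.9 FPKM), Tyrobp (158 ± 81.8), Fcgr3 (37.8 ± 16), Fcgr1 (11.8 ± 4.80), Fcgr4 (10.5 ± 4.07), Fcgr2b (8.56 ± 2.34), Syk (2.82 ± 1.05) and Nfam1 (2.78 ± 1.49; SD, n = 5). Neighbours in this order that lay within 1 SD of each other were Fcer1g and Tyrobp, Fcgr1 and Fcgr4, Fcgr4 and Fcgr2b, and Syk and Nfam1. In uninjured muscle the order began with Fcer1g (3.55 ± 1.35 FPKM), Tyrobp (3.09 ± 1.12) and Fcgr3 (0.886 ± 0.630), with the other 5 genes at group means of 0.0888 (Fcgr1, the lowest) to 0.233 FPKM (Syk). The 2 adaptors carried a median of 83.5% of the summed FPKM of the members in uninjured samples, and medians of 82.1%, 78.0%, 81.4% and 79.4% on days 3, 7, 14 and 21. Of the day 3 difference in mean FPKM, 36.5% to 58.4% remained on day 7 across the 8 genes (median 41.4%). Without day 7 replicate 5 that range was 15.6% to 33.8% (median 19.7%), and without day 3 replicate 5 as well it was 13.3% to 31.1% (median 17.8%). The range was 5.85% to 27.7% for day 14 (median 7.23%) and 0.105% to 8.78% for day 21 (median 2.54%).

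From day 3 to day 7 the estimates fell for all 8 genes, by 0.68 (Syk) to 2.0 (Tyrobp) on the log2 scale, and limma called 0 of them, with adjusted p from 0.0682 to 0.147. All 8 had an unadjusted p under 0.05, and 0.0478% of all genes tested were called lower. Without day 3 replicate 5 and day 7 replicate 5, the lowest and the highest of their groups for most members, 8 of 8 were called lower beside 11.9% of all genes, a count that the choice of those samples favours. Fcer1g then fell by 2.74 ± 0.34 (SE), Tyrobp fell by 2.93 ± 0.42 and Syk fell by 1.10. Leaving out day 7 replicate 5 alone gave 8 calls and leaving out day 3 replicate 5 alone gave 6, without Fcgr2b and Syk, and leaving out day 7 replicate 4 gave 1 (Fcgr4). The call of a fall between days 3 and 7 therefore depended on these samples. From day 7 to day 14 limma called 0 members lower (7 at an unadjusted p under 0.05) beside 0.219% of all genes, and without day 7 replicate 6 it called Fcgr2b and Fcgr3. From day 14 to day 21 it called 0 members and 0% of all genes, and no member had an unadjusted p under 0.05. Between day 3 and day 21, 8 of 8 fell beside 16.2% of all genes, from -1.35 for Syk (limma, adjusted p = 0.000355) to -4.21 for Tyrobp (limma, adjusted p = 4e-05), and no day 21 sample overlapped the day 3 range for any of the 8 (12.2% of all genes).

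Macrophage and neutrophil markers rose at day 3 with the members, and so did some markers of other cell types. All 10 macrophage and monocyte markers (led by Lyz2 and Cd68) were called higher at day 3, with 8 still called on day 7, 2 on day 14 and 0 on day 21. Their summed level was 23.7 to 33.4 FPKM in uninjured samples. After VML it was 340 to 2209 FPKM on day 3, 56.1 to 2084 FPKM on day 7, 53.6 to 114 FPKM on day 14 and 42.4 to 69.8 FPKM on day 21. Of 8 neutrophil markers (S100a8 and S100a9 highest), 3 were tested and all 3 were called higher at day 3, with summed FPKM from 0.456 to 4.31 in uninjured muscle and 20.4 to 38.0 at day 3, and Ly6g, a defining marker, was at 0 in the uninjured samples and at days 7, 14 and 21. Mean S100a8 was 12.7 FPKM at day 3 and 14.3 at day 7 (samples 0.423 to 45.9). Mean S100a9 was 10.2 FPKM at day 3 and 9.68 at day 7 (samples 1.01 to 41.6). Mast cell markers (Mcpt4 and Tpsb2), of interest because mast cells also carry Fcer1g, gave 0 of 5 calls, and their summed level was 3.21 to 6.07 FPKM in uninjured samples and 4.17 to 6.06 at day 3. Natural killer cell markers (Gzma and Nkg7) gave 0 calls of 2 tested, T cell markers (Trac and Cd3e) 0 of 1, B cell markers (Ebf1 and Cd79b) 2 of 4 and dendritic cell markers (Zbtb46 and Cd209a) 2 of 4. Platelet markers (Pf4 and Gp1ba) gave 1 higher and 1 lower of 4, and endothelial markers (Cdh5 and Pecam1) 2 lower of 5. Fibroblast markers (Col1a1 and Dcn) gave 3 higher of 5 and skeletal muscle markers (Acta1 and Pvalb) 7 lower of 9. Summed platelet markers were at 4.54 to 7.26 FPKM in uninjured samples and 30.5 to 185 FPKM at day 3. Summed fibroblast markers were at 44.2 to 99.5 FPKM in uninjured samples and 271 to 521 FPKM at day 3. These calls depended on scaling. With a common sum, 6868 of 14630 genes were called higher at day 3. Mast cell markers then gave 1 higher of 5, natural killer cell 1 of 2 and T cell 0 of 1. B cell, dendritic cell and platelet markers each gave 3 higher of 4, and fibroblast markers 5 of 5. Endothelial markers gave 1 higher and 1 lower of 5, and skeletal muscle markers 3 lower of 9. The part of these cell types in the results was not tested.

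The members were also set against the mean log2 level of the 10 macrophage markers, which itself was 4.28 higher at day 3, so that a gene of constant level reads as lower. At day 3 the median of all genes tested was -4.26 relative to the markers. Fcgr1 (1.75), Fcer1g (1.25) and Tyrobp (1.24) were higher relative to the markers than in uninjured samples, with no overlap, which held for 0.205% of all genes. Shares on the higher side are small because the markers themselves rose, so they restate how strongly a gene rose. The Fcgr1 difference also rests on 16 reads over the uninjured samples. Fcgr4 (1.31), Fcgr3 (1.10) and Fcgr2b (0.53) had positive differences with overlapping samples. Syk (-1.15) and Nfam1 (-0.84) were lower relative to the markers with no overlap, as were 92.4% of all genes, so that is no result about these genes. Fcgr2b was higher relative to the markers by 0.98 at day 7 (0.082% of all genes without overlap on that side) and by 0.97 at day 14 (0.615%), with no overlap. At day 21 Nfam1 was at -0.75 with no overlap, beside 46.2% of all genes on that side and a median of -0.90. Without day 3 replicate 5 and day 7 replicate 5 the day 3 differences were 1.55 for Fcgr1, 1.19 for Fcer1g and 1.28 for Tyrobp and the day 7 difference of Fcgr2b was 1.07, all without overlap. These relative levels rest on 0.1 FPKM added to each value and have no test.

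**Figure D4:**
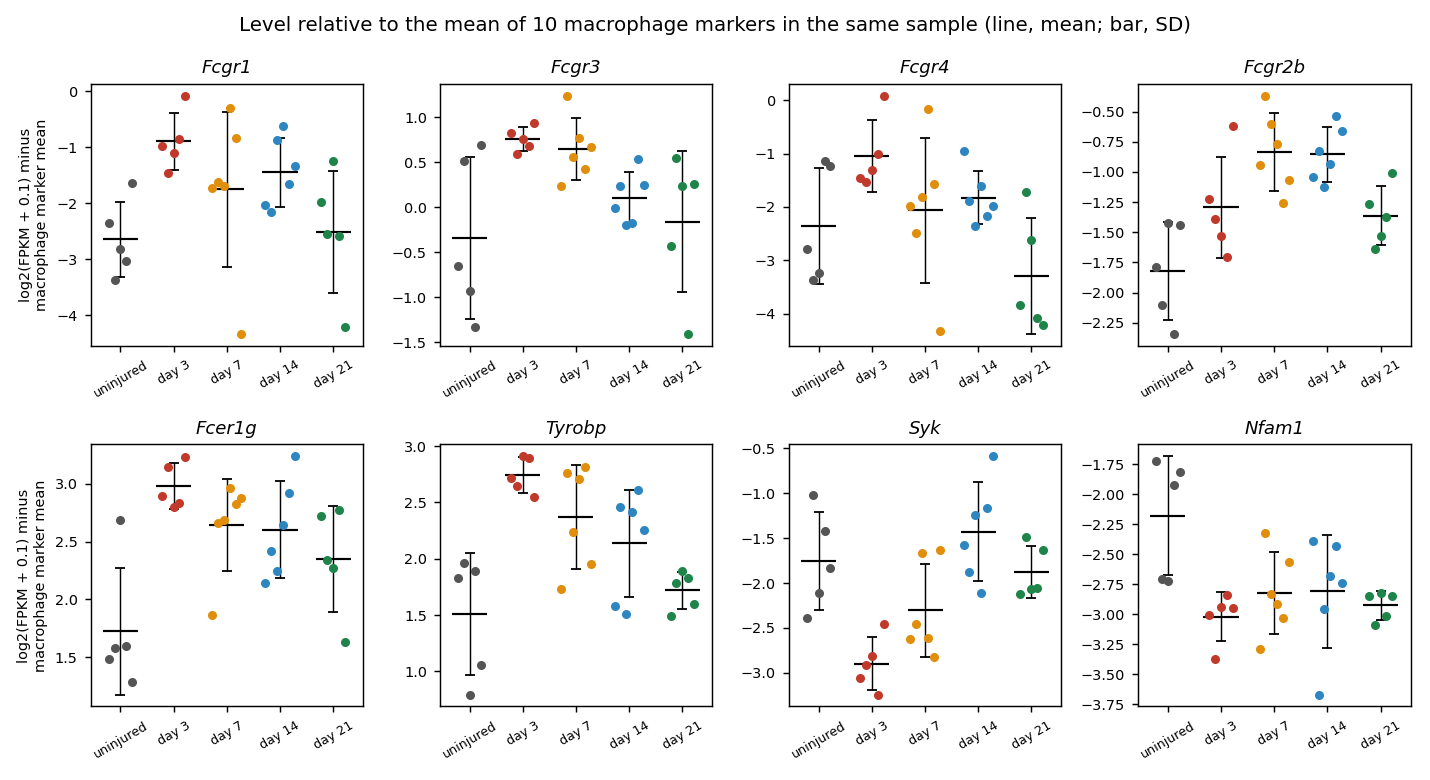
Level of each member minus the mean level of 10 macrophage markers, as log2(FPKM + 0.1), in every sample by group; points are samples, horizontal lines are group means and bars are SD. The day 3 samples of Fcgr1, Fcer1g and Tyrobp lie above all uninjured samples, and those of Syk and Nfam1 below them.

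In the larger pathway lists most tested genes rose with the members at day 3. Over all genes tested the median log2 fold change was then 0.01 and 23.4% were called higher. The filter on low values can let genes in through injured samples alone, and listed genes that were not tested have no result. Of 25 inhibitory receptors and phosphatases, 23 were tested and 21 rose at day 3 with a median of 1.66, led by Sirpa (3.66), the receptor for the self signal CD47, Clec4a1 (3.36) and Ptpn6 (3.24), the phosphatase SHP-1. In this list 13 were called at day 7, 2 at day 14 and 0 at day 21. Receptors that pair with ITAM adaptors, or carry a hemITAM (a form of the motif with 1 tyrosine) themselves, made up another list. The plot shortens its name to receptors paired with ITAM adaptors. It gave 9 of 10 tested (27 listed) with a median of 1.84. Trem2, the lipid-binding partner of Tyrobp, was highest at 4.08 (group means 21.2 FPKM against 0.102). The C-type lectins Clec4n (3.24) and Clec7a (2.69) followed. This list gave 8 calls at day 7, 0 at day 14 and 0 at day 21. Phagocytic partners gave 12 higher of 13 tested (median 2.21), among them the complement receptor C3ar1 (3.51), the integrin chain Itgb2 (3.31) and the oxidase subunit Cybb (2.82). Only Cd36, a fatty acid transporter that muscle also expresses, was called lower (-0.76; limma, adjusted p = 0.00129), a direction that turned to 0.05 when FPKM were rescaled to a common sum per sample. Cd36 was also the only gene of this list called at day 21 (-0.91; limma, adjusted p = 0.00594), a call lost with a common sum.

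Src-family kinases and signal proteins after Syk gave 22 higher and 1 lower of 33 tested at day 3 (median 0.76), with Rac2 (2.96) and Vav1 (2.22) among the largest increases. They gave 15 higher and 1 lower at day 7, 6 and 2 at day 14, and 1 and 1 at day 21, where Tec (0.80; limma, adjusted p = 0.0248) was higher and Nfatc3 (-0.42; limma, adjusted p = 0.0482) lower. Nfatc3 was also the gene called lower at day 3 (-0.46), which became 0.09 with a common sum, and both day 21 calls were lost with it. Of 8 other adaptor chains, named ITAM adaptor chains in the plot of pathway lists, 4 were tested and 2 (Hcst and Cd79b) were called at day 3. Hcst (DAP10), which carries a motif for phosphoinositide 3-kinase and no ITAM, was at 0 in all 5 uninjured samples and 3.19 to 4.57 FPKM at day 3, at least 12-fold higher against a floor of 3 reads per library. Of 11 other immunoglobulin-binding receptors, 3 were tested and Fcrls (3.25), an Fc receptor-like gene, was called higher at day 3, while Fcgrt, the neonatal Fc receptor, was not (0.37; limma, adjusted p = 0.0609).

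**Figure D5:**
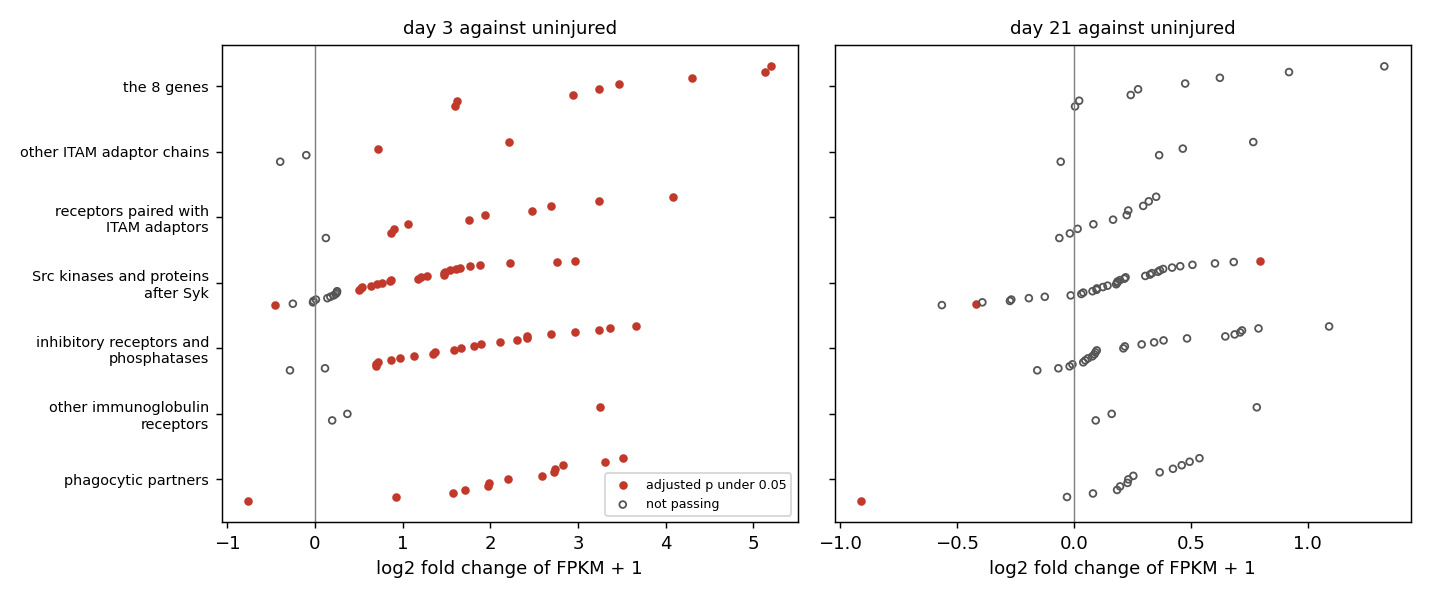
Log2 fold changes of all tested genes of the 6 pathway lists and of the 8 members, at day 3 (left) and day 21 (right) against uninjured muscle, on axes of different range; points are genes, filled where the adjusted p was under 0.05. All 8 members are filled on the left and none on the right, where the filled points are Tec, Nfatc3 and Cd36.

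Fcgr2b, Fcgr4, Fcgr3 and Fcer1g lie close together on chromosome 1 (GRCm38), at 170958617-170976547, 171018920-171029761, 171051174-171064935 and 171229572-171234365, and Fcgr1 (chromosome 3, 96282909-96293969), Tyrobp (chromosome 7, 30413760-30417585), Syk (chromosome 13, 52583173-52648792) and Nfam1 (chromosome 15, 82992973-83033306) lie elsewhere. Of 18 other genes tested within 100000 bases of the chromosome 1 members, 1 (Adamts4, 0.77, named after its value was seen) was called higher at day 3 and 5 were called lower. Over all 14630 genes tested, 6316 were called at day 3, of which 3417 (23.4% of those tested) were higher and the rest lower. Lower calls were therefore common, and these counts are no result about the region. An antisense gene, Gm38204, overlaps Fcgr2b on the other strand and reached at most 0.142 FPKM, which matters because the libraries do not record strand. Of 50-base windows in the exons of Fcgr3, 9.58% occur also in Fcgr2b, so reads there could be assigned to either, and the split between these genes is uncertain to that extent.

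The 100 bases before the RefSeq start are shown for the 4 receptors, since they bind the same ligand and moved together. They are promoter sequence of GRCm38.p6, 5′ to 3′ on the gene's strand, and capitals mark the letters GAGGAA on either strand, the core of the PU.1 box, a factor known from myeloid cells.

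Fcgr1: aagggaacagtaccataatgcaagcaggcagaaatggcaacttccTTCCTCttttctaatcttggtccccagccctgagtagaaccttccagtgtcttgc
Fcgr3: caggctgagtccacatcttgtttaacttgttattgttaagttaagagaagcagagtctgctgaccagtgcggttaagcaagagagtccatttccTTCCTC
Fcgr4: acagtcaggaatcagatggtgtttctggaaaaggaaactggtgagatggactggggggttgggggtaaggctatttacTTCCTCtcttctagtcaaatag
Fcgr2b: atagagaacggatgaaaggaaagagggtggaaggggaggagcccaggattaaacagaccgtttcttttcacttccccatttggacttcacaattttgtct

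These windows are chr3:96293970-96294069 (minus strand), chr1:171059404-171059503 (minus), chr1:171018826-171018925 (plus) and chr1:170976072-170976171 (minus). The letters were present in the 3 activating receptors, 55, 6 and 22 bases before the start, and absent from the Fcgr2b window, and they occurred in 9.82% of all 32851 promoter windows of that length. The RefSeq starts of Fcgr3, Fcgr2b and, by a few bases, Fcgr4 lie inside the gene bounds given above. In windows of 300 bases, 250 before and 50 after the start, they were found in 6 of the 11 promoters listed for 7 members (Tyrobp had none) and in 28.3% of all promoters. The longer GAGGAAGT was found in 1 member (Fcgr4) and in 3.20% of all promoters. A match describes the letters only.

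Across the 27 samples the members were tightly correlated with each other, as a description without a test, since the samples share the group differences. The 28 pairs had Pearson r of 0.904 to 0.983 on log2(FPKM + 1) (median 0.944), and after group means were subtracted r was 0.752 to 0.928 (median 0.858). Day 7 replicates 5 and 6 were the extremes of their group for 8 of 8 members, and r was not taken without them. The tested genes most like each member over 27 samples were Clec4a2 for Fcgr1 (r = 0.973), Unc93b1 for Fcgr2b (0.989), Lyz2 for Fcgr3 (0.987), Lgals3bp for Fcgr4 (0.968), Grn for Fcer1g (0.984), Akr1b8 for Tyrobp (0.988), Lilr4b for Syk (0.978) and Abcc3 for Nfam1 (0.984). By rank, Spearman rho for these pairs ran from 0.823 (Nfam1) to 0.979 (Fcgr2b).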

How the data were processed

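The authors sequenced poly-A RNA of tibialis anterior muscle, taken from uninjured mice and at days 3, 7, 14 and 21 after VML, as non-directional libraries on a Novaseq instrument. The submitters' processing notes list HISAT2 2.0.5 and featureCounts 1.5.0-p3, and the genome build is not given in the sources used here, although the coordinates of 98.1% of genes matched GENCODE M21 (GRCm38). The authors deposited gene-level FPKM values, and no counts were used as such. FPKM multiplied by gene length gave whole reads to within 0.1 read, which supplied the depth (14376395 to 24436763 reads per sample) and a voom alternative. Limits drawn from 3 reads cover counting error only.

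Genes with at least 0.5 FPKM in at least 5 samples (14630 of 54532) were tested with limma 3.58.1 (R 4.3.3) on log2(FPKM + 1), with 1 mean per group, all 27 samples in 1 fit and Benjamini-Hochberg adjustment over all genes in each comparison. Calls were at an adjusted p under 0.05. Ratios of members used 0.1 FPKM added and exact permutation tests (Python 3.11.15, scipy 1.17.1). The members and lists (6 pathway lists, 11 marker lists) were chosen with earlier results of these data known. Named from each pathway list were the 3 largest changes called at day 3, every gene called at day 21 and genes called against their list, of which 1 is not reported here. Motifs were searched in GENCODE M21 coding sequence and RefSeq promoters. The scripts were tested on simulated data. Alternatives were other pseudocounts, filters, scalings, weights, blocks and left-out samples. The proteomic data of the study were not analysed here.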

Additional observations from a re-analysis of the deposited data

Results flagged for a closer look

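Of 50 groups of values examined, 10 had a sample whose gap to its nearest neighbour passed Dixon's 95% limit. Chance alone flags about 1 in 20 among independent, normally distributed groups. Most groups here hold raw FPKM of correlated genes in the same samples, so that rate is no yardstick for the count. Day 7 replicate 5 was the highest of its group in 7 of the 10 flagged groups. It was at 20.7 FPKM for Fcgr1 (next 7.27), 15.3 for Fcgr2b (next 5.22), 49.5 for Fcgr3 (next 15.3), 261 for Fcer1g (next 70.9), 259.9 for Tyrobp (next 59.4), 5.12 for Syk (next 1.38) and 4.42 for Nfam1 (next 1.11). For Fcgr4 its 12.3 FPKM was followed by 8.02 in replicate 4, within the limit. The other flags were day 14 replicate 4 for Fcgr1, at 2.01 FPKM (next 1.10), uninjured replicate 3 for Fcer1g, at 5.95 FPKM (next 3.16), and uninjured replicate 3 for the log2 ratio of Fcer1g to Tyrobp, at 1.89 (next 0.23).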

How the results depend on the processing

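The day 3 calls of all 8 members, their fall from day 3 to day 21 and the absence of calls between days 14 and 21 held under each alternative run. Against uninjured muscle at day 7, 7 or 8 members were called in all but 1 alternative, the fit of only the 2 groups compared, which gave 5, and leaving out 1 sample gave 7 to 8. The day 14 count of 3 became 6 with a pseudocount of 0.1, 1 without a filter, 0 with voom weights, 5 with the replicate block, 5 with the replicate block by letter, 7 with only the 2 groups, 6 with sample quality weights and 5 without day 3 replicate 5 and day 7 replicate 5, and leaving out 1 sample gave 1 (day 14 replicate 5) to 5 (day 7 replicate 5). The day 21 count of 0 became 3 with only the 2 groups, 1 with quality weights and 1 without those 2 samples, and leaving out 1 sample gave 0 to 1. Day 7 against day 3 gave 8 calls with quality weights and 8 without those samples, with 0 to 8 on leaving out 1 sample, and day 14 against day 7 gave 2 with quality weights and 0 to 2 on leaving out 1 sample.

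Estimates near 0 changed sign. For Fcgr4 at day 21 the value was -0.023 with a pseudocount of 0.1, -0.038 with quantile normalization and -0.11 to 0.073 on leaving out 1 sample, and for Nfam1 at day 21 it was -0.060 with quantile normalization and -0.011 to 0.051. Syk from day 7 to day 14 was 0.012 without day 3 replicate 5 and day 7 replicate 5, and -0.38 to 0.012 on leaving out 1 sample. The activating to inhibitory log2 ratio with a pseudocount of 1, above every uninjured Fcgr2b level, differed from uninjured by 1.86, 0.95, 0.43 and 0.19 at days 3, 7, 14 and 21. From group means it differed by -0.18 at day 7, and leaving out 1 sample gave -0.18 to 0.33. The log2 ratio of Fcer1g to Tyrobp from group means differed by -0.081 at day 3 and -0.11 at day 7, and leaving out 1 sample gave -0.13 to 0.43 and -0.093 to 0.47, while the replicate block gave -0.072 at day 7. The causes were not tested.

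The criterion for pairing by replicate number was not met. Over 51 same-numbered pairs of samples the median correlation of deviations from group means was -0.003, with 15 over 0.1, against 0.003 over the 240 other pairs, and 11 of 27 samples correlated best with a sample of their own number. By the letter in the sample descriptions it was 0.020 over 49 pairs, with 15 over 0.1. Beside the day 14 count, the replicate block changed no count of members called.

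Counts over all genes moved more. They were 4296 at day 7 (2901 with only the 2 groups, 6513 with a common sum), 2969 at day 14 (1785 with a common sum), 502 at day 21 (49 with a common sum, 2471 with quality weights), 7 for day 7 against day 3 (1 to 2265), 49 for day 14 against day 7 (5 to 65) and 3728 for day 21 against day 3 (6472 with quality weights). At day 3, 54.1% of all calls were higher, against 95.5% with a common sum, 91.4% with each sample's own total and 42.6% with quantile normalization. Depth limits Fcgr1 and Fcgr4 in uninjured muscle, with 16 and 14 reads over 5 samples.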
